A study of Schizosaccharomyces pombe with 6 samples.

Results

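The centromere flanks of chromosome I of fission yeast (Schizosaccharomyces pombe) were taken as all non-control array probes whose midpoints lay from 3678858 to 3878858, which is 100 kb either side of the centre of a probe gap at 3778858. They held 593 of the 42707 probes of the array, 262 to the left of the gap and 331 to the right. The gap, where the array carried no probe, ran for 11.4 kb from 3773142.5 to 3784575.5 (probe midpoints). It is the centromeric gap given by the rule, and 3 wider gaps lay near the ends of the chromosome. Positions are those of the array design, whose build the file headers label Feb2002. Of the members, 588 had no outlier flag on any array and were used, 258 on the left and 330 on the right, at a median spacing of 267 bp. The left flank was densely covered up to 3752542.5, and only 6 probes lay between there and the gap. The rule used positions alone and no measured value.

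RPA is the trimeric protein that coats single-stranded DNA, and Ssb1 is its large subunit in fission yeast. Hydroxyurea (HU) starves cells of deoxyribonucleotides, so that forks from early origins slow down and expose single-stranded DNA, and Rad3, the kinase of the ATR family, is recruited to RPA-coated DNA and holds back late origins. Fission yeast centromeres consist of a unique core between repeats packed in heterochromatin, and they replicate early in S phase. Transfer RNA genes stand at the borders of that heterochromatin, where they act as barriers, and in yeasts they are also known as places where replication forks pause.

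RPA (Ssb1) was precipitated from 3 samples of a cdc25-22 strain, called WT in the labels and here, and 3 samples of a cdc25-22 rad3∆ strain. Both strains thus carry the temperature-sensitive allele of the mitotic inducer Cdc25, and both went through the same block and release: growth at 25 °C in EMM6S medium, 4 h at 36.5 °C, return to 25 °C and 6 mM HU. All titles carry the number 60, with no unit stated. The labels do not say whether replicates were separate cultures, so p-values measure only the spread between these arrays. One label, for the input of rad3∆ array 3, reads cdc25-23. The labels call the material RNA, but name the channels IP and input, and the values were read as precipitated and input DNA. Each value is log2(IP/input) with the median nuclear probe of its array set to 0, so 0 does not mean absence of RPA.

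The label of the deletion was borne out by the input DNA: over the 32 probes inside rad3 (chromosome II, 904184 to 913629), all 32 were well above background on each WT array and 8 on each rad3∆ array. In the flanks, 586 to 591 members were well above background in the IP channel on 5 arrays. On rad3∆ array 2 the number was 532 (89.7%), and this dim array is named below where it decides a value. Replicate numbers were shared slides: array 1 of both strains lay on slide 1, and likewise for 2 and 3. The dyes were reversed on slide 3, which holds 1 array of each strain.

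The tRNA genes of the left flank are shown first, because the highest 1 kb window of that flank lay at one of them. Array positions matched the reference genome ASM294v3 (RefSeq) on the left flank, where probe length, which follows base composition, tracked the reference best at an offset of 2 bp. On the right flank the best offset was 6151 bp, so that no gene is named there. The sequences below are the 5 annotated tRNA genes of the left flank, 5′ to 3′ from ASM294v3, with capitals at GTTCNANNC, a core form of the B box, the internal promoter element bound by TFIIIC.
SPATRNACYS.03 (chrI:3700665-3700737, plus strand): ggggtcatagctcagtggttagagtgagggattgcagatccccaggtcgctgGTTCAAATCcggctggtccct
SPATRNAPHE.01 (chrI:3701556-3701628, plus strand): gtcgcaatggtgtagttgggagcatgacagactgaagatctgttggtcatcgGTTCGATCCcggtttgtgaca
SPATRNAVAL.04 (chrI:3710739-3710821, minus strand): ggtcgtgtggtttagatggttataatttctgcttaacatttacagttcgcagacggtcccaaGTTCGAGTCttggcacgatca
SPATRNAARG.02 (chrI:3736520-3736592, plus strand): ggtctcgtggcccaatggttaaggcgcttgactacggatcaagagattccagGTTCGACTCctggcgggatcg
SPATRNAPHE.02 (chrI:3752334-3752406, minus strand): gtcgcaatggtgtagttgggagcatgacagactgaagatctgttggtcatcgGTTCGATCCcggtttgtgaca

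All 5 held GTTCNANNC on their own strand, as did 156 of the 171 annotated nuclear tRNA genes (91.2%). On either strand, it was in 161 of these tRNA genes and in 2.33% of 172216 consecutive 73-base tiles of the genome. The pair of phenylalanine tRNA genes was identical over all 73 bases (0 mismatches). No probe overlapped either of them, and their values come from probes beside the gene.

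RPA was high at all 5 tRNA genes in both strains. Values are means of the probes within 500 bp of the gene's centre. SPATRNACYS.03 read 1.19, 1.21 and 1.48 in WT (arrays 1, 2 and 3) and 1.28, 1.06 and 1.40 in rad3∆, over 5 probes. At SPATRNAPHE.01, 3 probes read 0.62, 1.09 and 1.29 in WT and 0.77, 1.18 and 1.03 in rad3∆. The groups overlapped at both genes, and array 1 was the lowest of each strain at SPATRNAPHE.01.

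SPATRNAVAL.04, with 2 probes, read 1.34, 1.06 and 1.40 in WT and 1.20, 1.07 and 0.91 in rad3∆. SPATRNAARG.02, with 4 probes, read 1.02, 0.73 and 1.11 in WT and 0.79, 1.17 and 1.08 in rad3∆. For SPATRNAPHE.02, the named gene nearest the gap, 2 probes read 1.37, 0.83 and 1.12 in WT and 0.95, 0.75 and 0.63 in rad3∆. The strains overlapped at each of these genes, and at SPATRNAPHE.02 rad3∆ was lower on all 3 slides.

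A gene or window is called enriched below at an adjusted p under 0.05 (limma, Benjamini-Hochberg over all features) if its fitted log2 value is 0.5 or higher, and depleted at -0.5 or lower. The tRNA genes were enriched in 5 of 5 cases in each strain, with median fitted values of 1.09 in WT and 1.04 in rad3∆. Over the 119 tRNA genes measured in the genome, 84 (70.6%) were enriched in WT and 80 (67.2%) in rad3∆, with medians of 0.73 and 0.74. High RPA at tRNA genes was thus common in the genome. The strain difference ranged from 0.06 at SPATRNAARG.02 to -0.33 ± 0.17 (SE, adjusted p = 0.67 by limma) at SPATRNAPHE.02, and no tRNA gene was called different. The 15 probes within 500 bp of a tRNA gene averaged 1.13 ± 0.14 in WT and 1.06 ± 0.04 in rad3∆ (SD, n = 3). The 237 other densely placed probes of the left flank averaged 0.42 ± 0.10 and 0.27 ± 0.07.

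**Figure D1:**
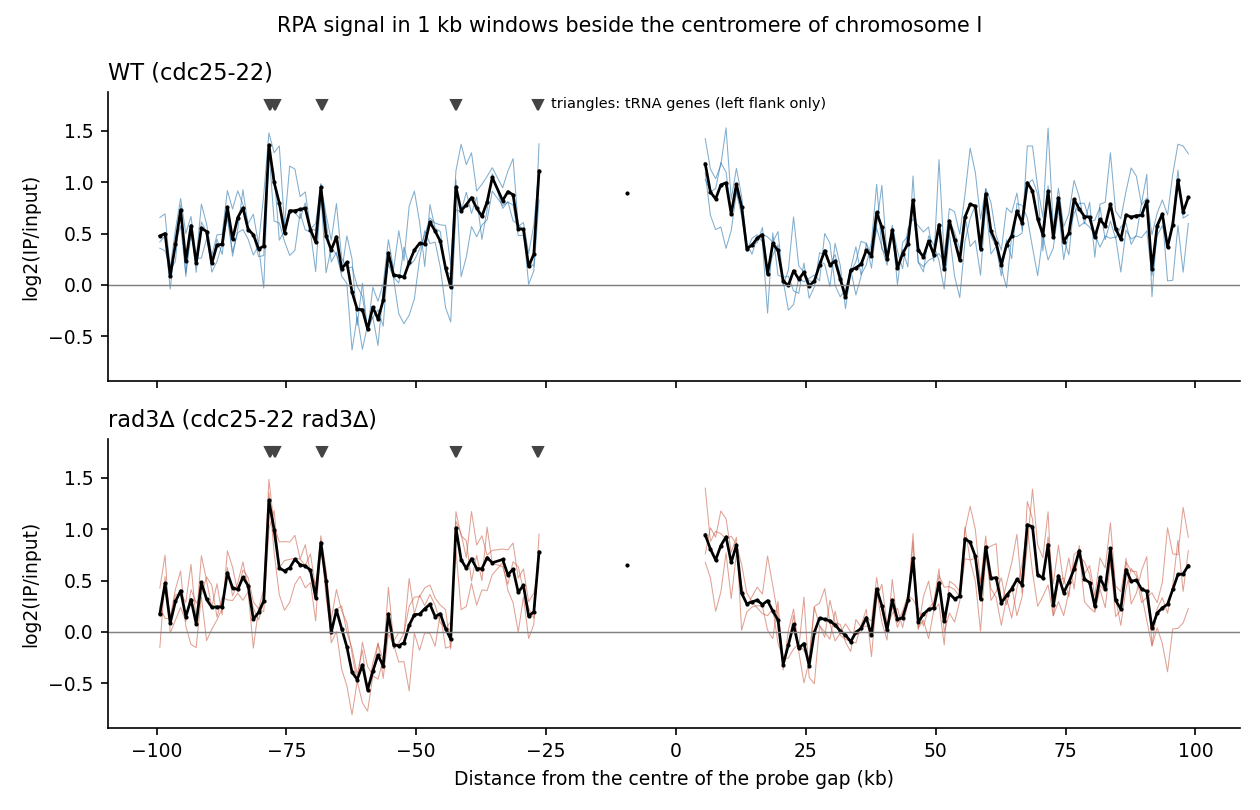
Mean log2(IP/input) of 1 kb windows against the distance in kb from the centre of the probe gap, with WT above and rad3∆ below. Thin lines are single arrays, black lines are means of 3 arrays, and triangles mark the tRNA genes of the left flank. Both strains rise sharply at the tRNA genes, fall below 0 near -60 kb and are high on both sides of the gap.

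RPA over the flanks as a whole stood above the array median in every sample. The mean over the 588 probes was 0.43, 0.42 and 0.62 in WT (arrays 1, 2 and 3) and 0.28, 0.34 and 0.42 in rad3∆. Slide 3 gave the highest value of each strain, and the strains overlapped by less than 0.01, WT array 2 lying just below rad3∆ array 3. The means were 0.49 ± 0.11 in WT and 0.35 ± 0.07 in rad3∆ (SD, n = 3). Averaged over arrays, 81.3% of the probes lay above the array median, from 75.7% on the lowest array to 87.1% on the highest. The mean input signal of the same probes was 0.12 ± 0.02 log2 units above the array median in WT and 0.10 ± 0.02 in rad3∆. The mean IP signal was 0.59 ± 0.09 and 0.44 ± 0.09 above the array median (SD, n = 3). Along the flanks the input was uneven. In the 10 kb stretch that holds SPATRNAPHE.02, with 14 probes, the fitted input was 1.15 in WT and 1.22 in rad3∆. In the 10 kb left of the gap centre, with 4 probes, it was -0.86 in both strains. The part of this unevenness in log2(IP/input) was not tested.

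The flanks of chromosome I carried more RPA than the rest of their chromosome and than the flanks of the other centromeres. Within each array, they exceeded the arms of chromosome I by 0.55 ± 0.13 (SD over 6 arrays, higher in 6 of 6). For the other centromeres, flanks were also 100 kb either side of the gap centre. The gaps of chromosomes I, II and III were 11.4, 17.2 and 42.0 kb wide, so that probes began at unlike distances. The flanks held 588, 552 and 472 used probes. Against the flanks of chromosome II the difference was 0.22 ± 0.08, and against those of chromosome III it was 0.31 ± 0.09 (each higher in 6 of 6). Each of the 3 differences gave p = 0.031 in an exact sign-flip permutation test, two-sided, the smallest that 6 arrays allow. After adjustment over 5 such comparisons p was 0.039. This test and the sign-flip tests below take the 6 arrays as independent. Arrays of the same slide deviated together, so these p-values may be too small. With flanks of 50 kb instead of 100 kb the difference from chromosome II fell to 0.06 (exact p = 0.125) and that from chromosome III to 0.10 (exact p = 0.031). None of the 3 differences was shown to depend on the strain (exact permutation p = 0.4, 0.6 and 1 for the arms, chromosome II and chromosome III).

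**Figure D2:**
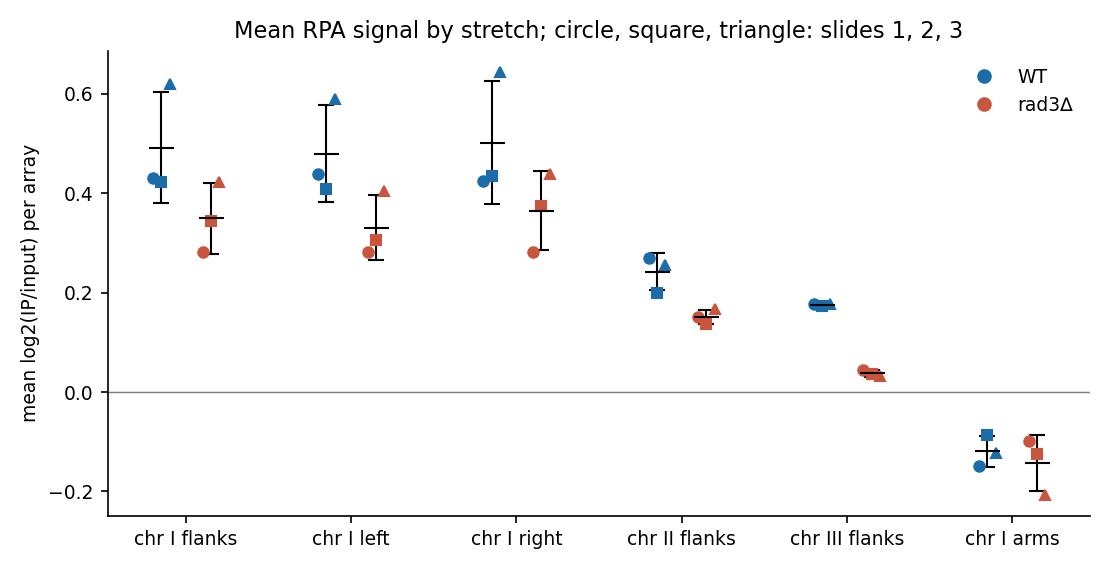
Mean log2(IP/input) of each array over the chromosome I flanks, each flank alone, the flanks of chromosomes II and III and the arms of chromosome I. Symbols are arrays by slide, and bars are means ± SD of 3 arrays. The chromosome I flanks average 0.49 in WT and 0.35 in rad3∆, against -0.12 and -0.14 over the arms.

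Many windows of the flanks were enriched, on both sides of the gap. Of the 168 windows of 1 kb with at least 2 probes, 87 were enriched in WT (51.8%) and 62 in rad3∆ (36.9%), and 61 were enriched in both. Over all 12039 windows of the genome, 18.4% were enriched in WT and 18.8% in rad3∆. In WT, 0 windows of the flanks were depleted, where 20.8% were depleted over the genome. The rad3∆ arrays gave 2 depleted windows (21.3% over the genome). Median fitted values in the flanks were 0.51 in WT and 0.37 in rad3∆, beside medians of -0.0020 in WT and 0.0020 in rad3∆ over all windows.

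By distance, RPA formed peaks and troughs and did not fall steadily away from the gap. The 10 kb right of the gap centre gave a fitted value of 1.01 in WT and 0.89 in rad3∆, from 15 probes. Values on the right then dropped to 0.51 and 0.38 at 10 to 20 kb and to 0.11 and -0.07 at 20 to 30 kb. From there they climbed again to 0.62 in both strains at 50 to 60 kb and stayed between 0.63 and 0.73 in WT out to 100 kb, and between 0.42 and 0.62 in rad3∆.

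On the left, the highest fitted value of the flanks lay at 10 to 20 kb, with 1.12 in WT and 0.93 in rad3∆, from only 2 probes. Its arrays read 0.80, 0.80 and 1.49 in WT and 0.74, 0.72 and 1.08 in rad3∆, highest on slide 3. The 10 kb left of the gap centre gave 1.02 and 0.67 from 4 probes. By the plain mean of the WT arrays this stretch was the higher, with 1.04 against 1.03 at 10 to 20 kb. Further out, the stretch at 30 to 40 kb gave 0.85 in WT and 0.67 in rad3∆, and that at 70 to 80 kb gave 0.79 and 0.74. Between them lay a trough at 50 to 60 kb, with -0.04 in WT and -0.17 in rad3∆. Arrays of both strains were low in this trough, which read 0.18, -0.20 and -0.06 in WT and -0.05, -0.25 and -0.20 in rad3∆. The outermost stretch of the left flank, at 90 to 100 kb, gave 0.43 and 0.29. Of the 20 stretches of 10 kb, 13 were enriched in WT and 8 in rad3∆, beside 16.9% and 16.1% of the 1234 such stretches of the genome.

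**Figure D3:**
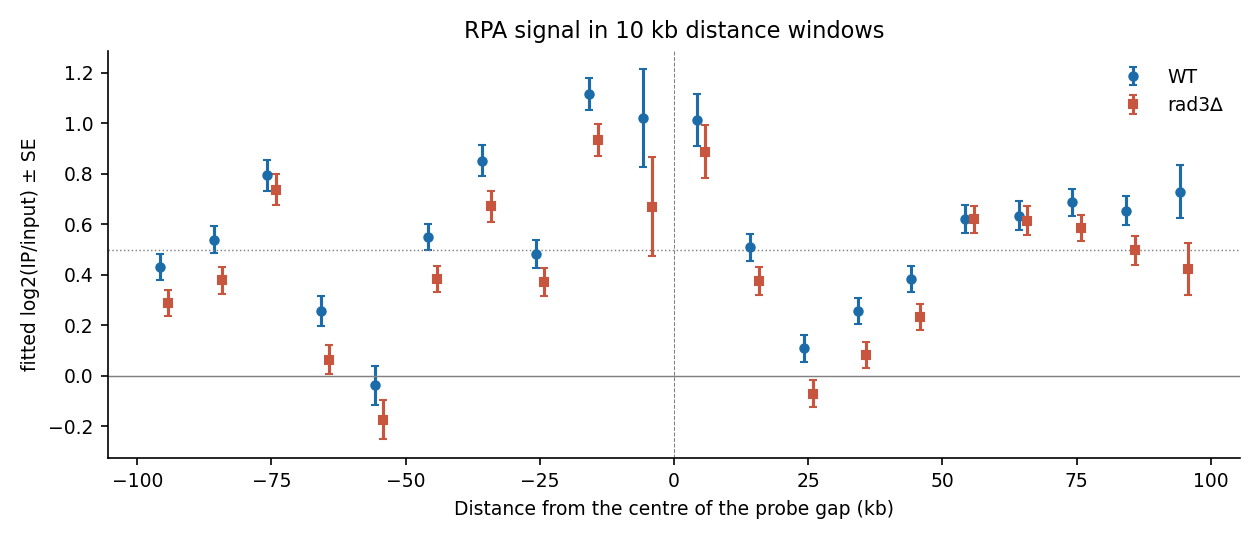
Fitted log2(IP/input) ± SE in 10 kb stretches against distance in kb from the centre of the probe gap, with WT as circles and rad3∆ as squares. The dotted line is the 0.5 threshold. The left stretch at 10 to 20 kb, with 2 probes, has the highest fitted value, 1.12 in WT. The stretch right of the gap reaches 1.01 in WT, the left trough at 50 to 60 kb reaches -0.04, and all 20 fitted values are lower in rad3∆.

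The inner and outer parts of the flanks were unlike on the left and on the right. Within 50 kb of the gap the left side held 89 probes, only 6 of them in the sparse stretch beside the gap, and the right side 158. The left side averaged 0.64 ± 0.16 in WT and 0.47 ± 0.14 in rad3∆, and the right side 0.37 ± 0.04 and 0.21 ± 0.04 (SD, n = 3). From 50 to 100 kb the order was the other way round, with 0.39 ± 0.06 and 0.26 ± 0.02 on the left and 0.62 ± 0.20 and 0.51 ± 0.12 on the right. Over the whole 100 kb the left flank differed from the right by only -0.03 ± 0.03 (SD over 6 arrays, higher in 1 of 6, exact sign-flip p = 0.094). With flanks of 50 kb that difference turned to 0.27 (exact p = 0.031). Both sides together, the mean over the probes of the inner 50 kb lay 0.06 ± 0.04 below that of the outer 50 kb (lower in 6 of 6 arrays, exact p = 0.031, adjusted 0.039). Each probe counts alike in these means, so the lower right side, with 158 probes against 89, weighs more in the inner part. The outer part held 169 probes on the left and 172 on the right. The left minus right difference over 100 kb is weighted by probe as well. Equal weight for each side was not tested. Without the probes within 5 kb of the edges of the gap, inner minus outer was -0.11 (exact p = 0.031).

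The 6 sparse probes next to the gap averaged well above the flank mean on 5 of 6 arrays. Their mean was 1.27, 0.86 and 0.99 in WT and 1.07, 0.29 and 0.89 in rad3∆, and the low value, on the dim rad3∆ array 2, was below that array's flank mean of 0.34. The means were 1.04 ± 0.21 in WT and 0.75 ± 0.41 in rad3∆ (SD, n = 3), which overlap. The input of these probes was -0.41 ± 0.17 and -0.40 ± 0.12 from the array median, and the nearest pair of probes to the gap was not well above background in the IP on rad3∆ array 2.

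The 5 highest windows of the flanks lay at tRNA genes, next to the gap and, on the right, from 3846001 to 3848000. The window from 3700001 to 3701000, with SPATRNACYS.03, had fitted values of 1.40 ± 0.11 in WT and 1.32 ± 0.11 in rad3∆ (SE). Its arrays read 1.31, 1.29 and 1.48 in WT and 1.35, 0.999 and 1.48 in rad3∆. The first window right of the gap, from 3784001 to 3785000, followed with 1.27 ± 0.11 and 1.03 ± 0.11. Array 3 stood out there, with 1.42 in WT and 1.40 in rad3∆ beside 1.09 and 1.03 on the other WT arrays and 0.68 and 0.76 on the other rad3∆ arrays. The remaining windows among the highest 5 were 3846001 to 3847000 (1.07 in WT and 1.12 in rad3∆), 3701001 to 3702000 with SPATRNAPHE.01 (1.04 and 1.04) and 3847001 to 3848000 (0.98 and 1.09).

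Adjacent enriched windows formed 7 runs on the left and 10 on the right in WT, and 4 and 7 in rad3∆. By this count, the longest run on the left, of 9 windows, had the same borders in both strains, 3700001 to 3709000. It covered SPATRNACYS.03, SPATRNAPHE.01, ubr11 and tca17. A run of 8 windows from 3736001 to 3744000, over SPATRNAARG.02, prm1 and lys1, was likewise the same in both strains, as was the pair of windows from 3710001 to 3712000 with SPATRNAVAL.04 and ppk3, which encodes a protein kinase. Thus 3 of the 4 left runs of rad3∆ began at a window with a tRNA gene. The fourth, from 3745001 to 3748000, lay within a WT run that went on to 3750000 and reached per1. Between 3744000 and 3745001 no window was measured, for lack of probes. In both strains it is therefore open whether the run over SPATRNAARG.02 and the run after it are separate. The counts and lengths of left runs, and the share that began at a tRNA gene, depend on this hole. Runs were not compared with those of the rest of the genome.

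WT had 3 left runs where rad3∆ had no run of adjacent windows, although single windows of the first 2 were enriched there as well. They lay at 3687001 to 3689000 (coa2), 3692001 to 3698000 (ain1 and pun1) and 3731001 to 3733000 (naa10, grx2 and fub1). Their mean fitted values were 0.58, 0.64 and 0.60 in WT and 0.45, 0.46 and 0.24 in rad3∆, and no window in them was called different between the strains. On the right, WT runs covered 3784001 to 3792000 beside the gap and then most of the stretch from 3834001 to 3878000, the longest having 10 windows from 3843001 to 3853000. In rad3∆ the run beside the gap ended at 3791000, and within the longest WT run only 5 windows formed a run, from 3846001 to 3851000.

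Signal next to SPATRNACYS.03 and SPATRNAARG.02 was lopsided on arrays 2 and 3 of both strains, as seen after the values were inspected, and hardly so on WT array 1. At SPATRNAARG.02, the 4 windows on the outer side averaged 0.27 ± 0.25 in WT and 0.07 ± 0.12 in rad3∆, and the 4 on the inner side, towards the gap, 0.77 ± 0.42 and 0.66 ± 0.32 (SD, n = 3). By array, WT read 0.33, 0.0026 and 0.49 outside and 0.35, 0.79 and 1.19 inside, and rad3∆ 0.12, -0.06 and 0.16 outside and 0.30, 0.77 and 0.92 inside. SPATRNACYS.03 showed 0.44 ± 0.19 and 0.27 ± 0.10 outside and 0.69 ± 0.33 and 0.64 ± 0.28 inside. Its inner windows, 3702001 to 3706000, began after the window with SPATRNAPHE.01, so they lie next to that gene. Array 1 gave 0.41 on either side of SPATRNACYS.03 in WT and 0.27 outside and 0.33 inside in rad3∆. SPATRNAVAL.04, on the other strand, had the higher side outside, with 0.61 ± 0.12 and 0.56 ± 0.15 against 0.36 ± 0.16 and 0.18 ± 0.16 inside. The outer side of SPATRNAVAL.04 lies in the run that starts at SPATRNACYS.03.

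In both strains the inner sides of SPATRNAARG.02 and SPATRNACYS.03 were lowest on slide 1 and highest on slide 3. The inner side of SPATRNAVAL.04 was highest on slide 2 in both strains. The 7 windows from 3737001 to 3744000 averaged 0.50, 0.78 and 1.13 in WT and 0.37, 0.75 and 0.88 in rad3∆ (arrays 1, 2 and 3), lower in rad3∆ on all 3 slides. The window over SPATRNAARG.02 itself did not share this order, with 1.02, 0.73 and 1.11 in WT and 0.79, 1.17 and 1.08 in rad3∆. In the first window beyond it, 3737001 to 3738000, array 1 read 0.08 in WT, beside 0.71 on array 2. The order of slides was the same after SPATRNACYS.03, where the 7 windows from 3702001 to 3709000 averaged 0.49, 0.63 and 0.93 in WT and 0.40, 0.69 and 0.81 in rad3∆. Slide 3, the highest of these, is also the slide with reversed dyes, and the part of the dyes in it was not tested.

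**Figure D4:**
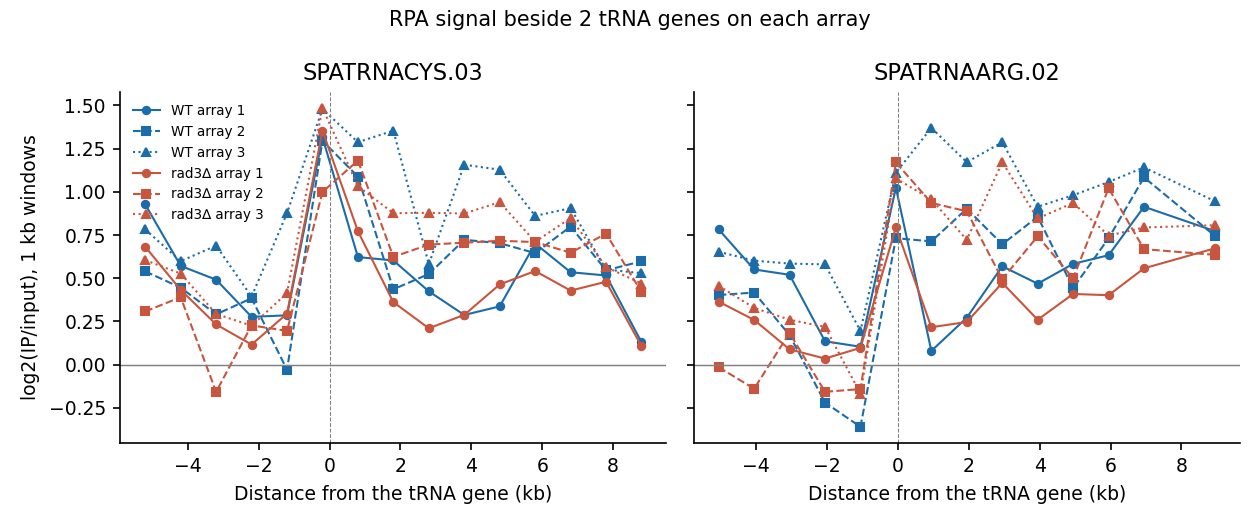
Log2(IP/input) of 1 kb windows on each of the 6 arrays against the distance in kb from SPATRNACYS.03 (left) and SPATRNAARG.02 (right); positive distances point to the probe gap. Circles, squares and triangles are arrays 1, 2 and 3, in blue for WT and red for rad3∆. All arrays are high at the genes. Array 1 is the lowest of its strain over the 7 windows that follow (in the left panel, those after SPATRNAPHE.01), with 0.49 and 0.50 in WT and 0.40 and 0.37 in rad3∆.

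The genes around the tRNA genes ranged from RPA-rich to RPA-poor. Of 29 protein-coding genes in the left flank, 27 had at least 2 probes. In WT, 9 of the 27 were enriched, and in rad3∆ 5, beside 16.4% and 16.2% of the 4162 protein-coding genes measured in the genome. Median fitted values were 0.37 and 0.26, against -0.02 and -0.03 for all protein-coding genes. Among all 57 measured genes of the left flank, non-coding RNAs included, 28 were enriched in WT and 18 in rad3∆ (18.6% and 19% over all genes), 0 were depleted in WT and 2 in rad3∆ (20.7% and 20.2%).

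The highest protein-coding genes were prm1, which encodes a membrane protein of cell fusion in mating, and lys1, which encodes an enzyme of lysine synthesis. They overlap on opposite strands and share probes. Over prm1 the arrays read 0.50, 0.74 and 1.17 in WT and 0.37, 0.76 and 0.91 in rad3∆, and over lys1 0.58, 0.69 and 1.09 and 0.40, 0.60 and 0.94. Both genes were lowest on array 1 and highest on array 3 of each strain. Their fitted values were 0.88 ± 0.11 and 0.86 ± 0.09 in WT and 0.75 ± 0.11 and 0.72 ± 0.09 in rad3∆ (SE).

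Next came ubr11, a ubiquitin ligase gene (0.74 ± 0.10 in WT and 0.68 ± 0.10 in rad3∆), pun1 (0.80 ± 0.10 and 0.57 ± 0.10) and ain1, the alpha-actinin gene (0.69 ± 0.10 and 0.51 ± 0.10), all enriched in both strains. The cytochrome oxidase assembly gene coa2, the TFIID and SAGA subunit gene taf12, the glutaredoxin gene grx2 and SPAC15A10.07 were enriched in WT, at 0.50 to 0.56. In rad3∆ these 4 read 0.31 to 0.41, below the threshold, but none was called different between the strains. The last of the 10 highest was tca17, a gene of the TRAPP complex of vesicle transport, with 0.45 ± 0.12 and 0.36 ± 0.12.

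The lowest protein-coding gene was bud6, which encodes an actin regulator of polarised growth. It read -0.24, -0.20 and -0.42 in WT and -0.36, -0.34 and -0.59 in rad3∆ over 13 probes, negative on all 6 arrays. Its fitted values were -0.32 ± 0.09 and -0.47 ± 0.09 (SE), short of the threshold for depletion. Among the non-coding RNAs, SPNCRNA.3660 (-0.38 in WT and -0.67 in rad3∆) and SPNCRNA.3662 (-0.35 and -0.51) were lower still, and these were the 2 genes depleted in rad3∆. The neighbouring shugoshin gene sgo2 read 0.25, 0.28 and -0.06 in WT and 0.08, 0.22 and -0.52 in rad3∆, so that only slide 3 put it below 0. The 5 lowest windows of the flanks, 4 in a row from 3716001 to 3720000 and 1 from 3721001 to 3722000, lay at sgo2, bud6 and SPAC15E1.02C. The lowest of them, 3719001 to 3720000, had -0.45 ± 0.12 in WT and -0.58 ± 0.12 in rad3∆.

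The other protein-coding genes among the lowest 10 followed bud6 towards the gap, apart from mug182 (0.28 and 0.21). SPAC15E1.02C gave -0.25 in WT and 0.06 in rad3∆ over 2 probes, with 0.69 on rad3∆ array 2 and values below 0 on all other arrays. The ribosomal protein gene rpl42 gave -0.00094 in WT and -0.14 in rad3∆, and hal3 gave -0.0043 and -0.17. The phospholipid synthesis gene ect1 and the retromer gene vps29 gave 0.24 and 0.22 in WT and 0.01 and 0.03 in rad3∆, with their lowest WT and rad3∆ values on slide 2. The GMP synthase gene gua2, the last gene before SPATRNAARG.02, gave 0.32 and 0.13.

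Nearest the gap among measured genes, SPATRNAPHE.02 was followed by per1 (0.34 ± 0.09 in WT and 0.28 ± 0.09 in rad3∆) and the non-coding SPNCRNA.3670 (0.39 ± 0.10 and 0.25 ± 0.10). The last tRNA gene therefore stood above its neighbours, at 1.09 ± 0.12 and 0.76 ± 0.12 (SE).

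**Figure D5:**
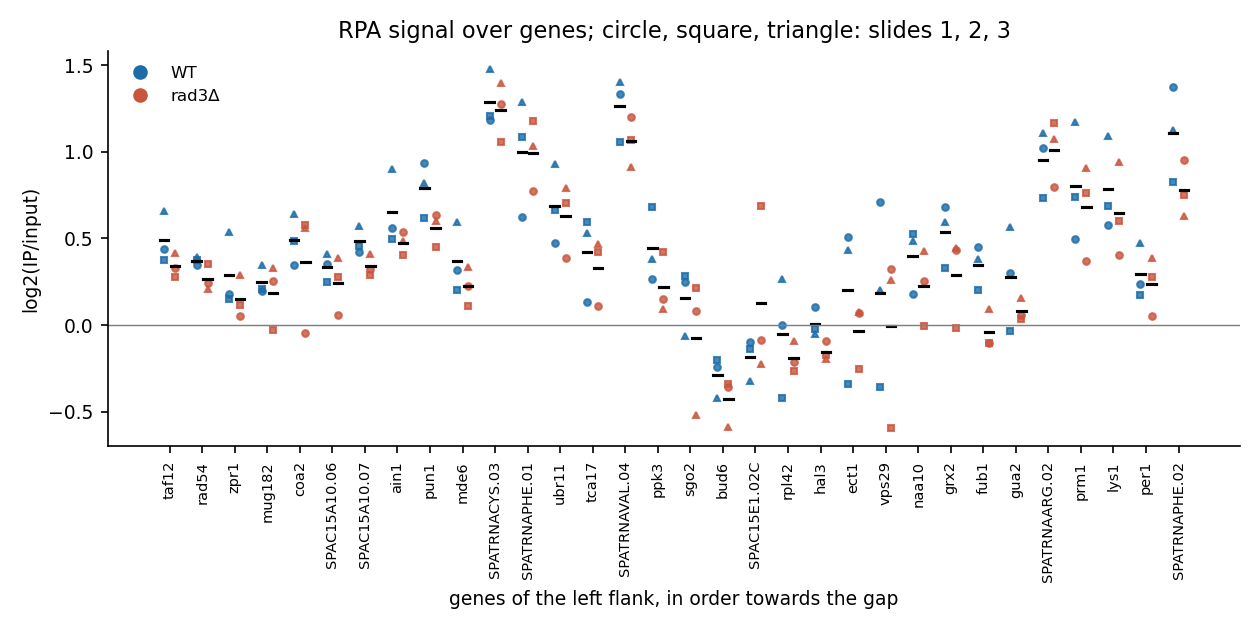
Log2(IP/input) over the protein-coding and tRNA genes of the left flank, in order towards the gap. Symbols are arrays by slide, and bars are means of 3 arrays, in blue for WT and red for rad3∆. The tRNA genes stand highest, prm1 and lys1 follow, and bud6 is below 0 on all 6 arrays.

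Windows rich in A+T tended to carry more RPA. Over the 73 windows of the left flank with matching reference positions, the A+T content ranged from 56.4% to 71.9% with a median of 64.3%, against 64.1% in 1 kb tiles of the arm to the left of the gap. Its Pearson correlation with the fitted value was 0.40 in WT and 0.34 in rad3∆, given as a description over neighbouring windows of the same arrays. The windows with the highest A+T content were 3736001 to 3737000 (71.9%), 3700001 to 3701000 (71.4%) and 3710001 to 3711000 (70.9%), which hold SPATRNAARG.02, SPATRNACYS.03 and SPATRNAVAL.04. A low A+T content did not mean a low value: 3703001 to 3704000, at 56.4%, gave 0.55 in WT and 0.64 in rad3∆. Probe hybridisation also depends on base composition, and its part was not tested.

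The question between the strains was whether RPA at the centromere changes without Rad3. RPA over the flanks was lower in rad3∆ by 0.14 on average, a difference that the spread between arrays did not set apart. By slide, rad3∆ minus WT was -0.15, -0.08 and -0.20, negative on 3 of 3, and the exact permutation test gave p = 0.2, where 0.10 is the smallest that 3 arrays against 3 allow. The left flank averaged 0.48 ± 0.10 in WT and 0.33 ± 0.06 in rad3∆ (exact p = 0.1, no overlap), and the right 0.50 ± 0.12 and 0.36 ± 0.08 (exact p = 0.3; SD, n = 3). Without WT array 3 the difference over both flanks was -0.08 (exact p = 0.3). The inner 50 kb of both sides differed by -0.16 (exact p = 0.1, no overlap) and the outer 50 kb by -0.13 (exact p = 0.3). The flanks of chromosomes II and III were lower in rad3∆ by 0.09 and 0.14 as well (each exact p = 0.1, no overlap). The arms of chromosome I were lower by 0.02 (exact p = 0.6).

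No window of the flanks passed the test between strains. With limma, 0 of 168 windows were called in either direction, where 13 windows of the genome (0.108%) were higher in rad3∆ and 0 lower. At an unadjusted p under 0.05, 10 windows of the flanks were lower and 0 higher (3% and 5.1% of all windows). The lowest adjusted p in the flanks was 0.51. The fitted difference was negative in 150 of the 168 windows, against 54.8% over the genome, and the median difference was -0.14 against -0.02. In 22 windows (13.1%) all rad3∆ arrays lay below all WT arrays, where the genome had 4.63%, and the reverse held in 0 windows (6.05% of all windows). On all 3 slides rad3∆ was lower in 77 windows (45.8%), against 17.7% of all windows, and higher in 2 (15.6% of all windows).

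In stretches of 10 kb the fitted difference was negative in 20 of 20 (60.7% over the genome), and 0 were called (2.92% of all stretches were higher and 0.081% lower). Unadjusted, 4 stretches with lower and 0 with higher values had a p under 0.05 (6.73% and 10.3% of all stretches), and the lowest adjusted p was 0.26 (limma). The strains did not overlap in 4 stretches, all on the right from 10 to 50 kb (lower without overlap in 6.08% of all stretches, higher in 9%). At 20 to 30 kb the arrays read 0.16, 0.08 and 0.08 in WT and -0.12, -0.07 and -0.03 in rad3∆. At 30 to 40 kb they read 0.30, 0.20 and 0.26 in WT and 0.07, 0.08 and 0.10 in rad3∆. The differences in these were -0.18 ± 0.07 and -0.17 ± 0.07 (SE). In the 13 stretches enriched in WT the difference ranged from -0.35 in the 10 kb left of the gap centre, where rad3∆ array 2 read 0.07 beside 1.23 and 0.79 on the other rad3∆ arrays, to -0.0032 ± 0.08 at 50 to 60 kb on the right. It was -0.31 at 90 to 100 kb on the right, and -0.18 at 30 to 40 kb on the left, as in the RPA-poor stretch at 20 to 30 kb on the right. The differences nearest to 0 lay in stretches enriched in both strains. Next after 50 to 60 kb were -0.02 at 60 to 70 kb on the right and -0.06 at 70 to 80 kb on the left.

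The windows with the most negative differences lay near the right margin, at 3875001 to 3876000 (-0.46 ± 0.21), 3872001 to 3873000 (-0.46 ± 0.18), 3869001 to 3870000 (-0.42 ± 0.20) and 3871001 to 3872000 (-0.39 ± 0.15), and beside the gap at 3791001 to 3792000 (-0.39 ± 0.17). In 3871001 to 3872000 the arrays read 0.55, 0.48 and 0.70 in WT and 0.04, 0.28 and 0.23 in rad3∆, without overlap (SE above; adjusted p = 0.51 by limma). The most positive were 3834001 to 3835000 (0.25 ± 0.16), 3796001 to 3797000 (0.20 ± 0.23), 3840001 to 3841000 (0.12 ± 0.15), 3847001 to 3848000 (0.11 ± 0.24) and 3833001 to 3834000 (0.11 ± 0.17). In 3834001 to 3835000 the arrays read 0.68, 0.43 and 0.88 in WT and 1.02, 0.71 and 0.99 in rad3∆, higher in rad3∆ on all 3 slides but with overlap.

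Among genes, 53 of 57 had a negative fitted difference (54.9% of all genes), 0 were called in either direction, and unadjusted p-values under 0.05 were found for 2 with a lower and 0 with a higher value (2.42% and 5.67% of all genes). The most negative protein-coding gene was fub1, whose product belongs to the PI31 family of proteasome regulators. It read 0.45, 0.20 and 0.38 in WT and -0.11, -0.10 and 0.10 in rad3∆, without overlap, a difference of -0.38 ± 0.13 (SE, adjusted p = 0.48 by limma). Next were grx2 (-0.25 ± 0.16), ect1 (-0.24 ± 0.21), pun1 (-0.23 ± 0.14) and sgo2 (-0.23 ± 0.13). SPAC15E1.02C was the one protein-coding gene with a positive difference (0.31 ± 0.20), which came from the dim rad3∆ array 2 (0.69). Those nearest to 0 after it were per1 (-0.06 ± 0.13), ubr11 (-0.06 ± 0.14), mug182 (-0.07 ± 0.13) and tca17 (-0.09 ± 0.16).

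With the slide as a block in the limma fit, 0 windows, 0 stretches and 0 genes of the flanks were called as well. Over the genome this fit called 0.341% of windows higher and 0.0166% lower, 5.43% and 0.729% of stretches, and 0.0359% and 0% of genes.

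Input DNA, a second readout of the same probes, gave no difference between the strains that passed the test. Its mean over the flanks was lower in rad3∆ by 0.02 (exact permutation p = 0.4), and 0 of the 20 stretches of 10 kb were called in either direction by limma (0 higher and 0.081% lower over the genome). None of the 20 was below an unadjusted p of 0.05 either (0.162% higher and 0.243% lower over the genome). The strain differences of the input in these stretches ranged from -0.08 to 0.07.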

How the data were processed

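The authors deposited 1 scanner file per 2-colour array. Its processed signals, in intensity units, had been background-subtracted, detrended and dye-normalized within the array, but not scaled between arrays, by Agilent Feature Extraction (protocol CGH_107_Sep09), per the file headers. The version was 10.7.1.1 on slide 1 per the headers, and 10.7.3.1 elsewhere and per the submitters' processing notes. The deposited log10 ratio is red over green processed signal and was used only as a check. From the deposited signals, log2(IP/input) was computed with the dyes given in the labels (IP green on arrays 1 and 2, red on array 3) and centred on the median nuclear probe. Outlier-flagged probes (211 of 42641 nuclear) were left out. No depth exists for arrays; their number limits the precision.

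Probes were averaged in 1 kb windows and genes (at least 2 probes) and in 10 kb stretches outward from the gaps. All 6 arrays entered each limma fit (limma 3.58.1 in R 4.3.3) with a mean per strain and a dye term, and p-values were adjusted over all features. The fit was tested on simulated data. Single values were tested by exact permutation (3 against 3) or sign flips (6 arrays). The sign flips took the 6 arrays as independent, although same-numbered arrays shared a slide. Members and lists were chosen with earlier results of these data known. Named windows were the 5 highest, 5 lowest, 5 largest differences each way and all enriched runs; named genes the 10 highest and 10 lowest protein-coding, 5 largest differences each way, all tRNA genes and the 3 nearest the gap.

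Replicate numbers are slides per the headers, and same-numbered arrays deviated together (correlations 0.27, 0.19 and 0.35), so the numbers pair the samples; the fit with slide as a block was an alternative. Others were normexp with offset 50 (on median signals, as the files hold no mean signals), mode centring, probes above background, no dye term, other window and flank widths, thresholds of 0.3 and 1, and leaving out arrays. Sequences and genes are from ASM294v3, matched by probe length and base composition: of 126 segments of 100 kb, 108 matched within 10 bp. Columns left unused: 0.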

Additional observations from a re-analysis of the deposited data

How the results depend on the processing

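The count of enriched windows, stretches and genes followed the threshold. At a log2 value of 1, 10 windows of 1 kb were enriched in WT and 6 in rad3∆, 3 and 0 stretches of 10 kb, and 5 and 5 genes. At 0.3, the counts in WT and rad3∆ were 121 and 92 windows, 16 and 14 stretches, and 44 and 29 genes. At -0.3 or lower, 3 windows were depleted in WT and 8 in rad3∆. Shares over all features were not computed at these thresholds or with arrays left out. These counts therefore do not show how far the flanks stood out from the genome. Leaving out arrays gave 64 to 91 enriched windows in WT, 50 to 64 in rad3∆, and 0 to 1 lower windows and 0 to 1 lower stretches between the strains: without both arrays of slide 2, 1 window was lower, and without rad3∆ array 2, 1 stretch. With slide as a replicate block, 0 windows, 0 stretches and 0 genes of the flanks were called, and the block changed no call there; the paired flank difference of -0.14 had an exact p of 0.25, the smallest that 3 pairs allow. Every alternative tried kept the flank strain difference negative, from -0.20 (normexp) to -0.08 (without WT array 3). The input difference over the flanks went from -0.02 to 0.0024 with mode centring (exact p = 1). The left minus right difference was -0.0285 with exact p = 0.031 over probes well above background and 0.27 with flanks of 50 kb (exact p = 0.031), and 0.0562 (exact p = 0.125) was the difference from chromosome II at that width. Without probes within 5 kb of the gap, left minus right was -0.0093 (exact p = 0.156) and inner minus outer -0.11 (exact p = 0.031). Leaving out 1 array or slide 2 kept the differences from chromosome II (0.20 to 0.24), chromosome III (0.29 to 0.33) and the arms (0.51 to 0.59) positive and inner minus outer negative (-0.0707 to -0.0515), but 5 arrays cannot give an exact p below 0.0625, nor 4 below 0.125. Weak IP signal on rad3∆ array 2 limits the probes nearest the gap.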
